A study of Sus scrofa with 12 samples.

Results

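The genes described here encode contractile proteins of smooth muscle that are made in the testis by peritubular myoid cells and by the walls of blood vessels. They are the rows of the deposited coding-gene table with the symbols ACTA2, ACTG2, MYH11, TPM1, TPM2, CNN1, CALD1, TAGLN, MYLK and DES. All 10 had a row, out of 21674 mRNAs in the table. Whole testes of Hezuo boars, a small plateau breed, and of Landrace boars were sequenced as RNA depleted of ribosomal RNA, with 3 biological replicates in each of 4 groups. Ha is Hezuo at an age of 30 days, Hb is Hezuo at 120 days, La is Landrace at 30 days and Lb is Landrace at 120 days. No group was treated.

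Peritubular myoid cells are flat, smooth-muscle-like cells that surround the seminiferous tubules, and their contractions move fluid and sperm along the tubule. As in other smooth muscle, calcium activates myosin light chain kinase, which phosphorylates the regulatory light chain of myosin and lets it pull on actin filaments. Tropomyosin, caldesmon and calponin lie along those filaments and tune the pull, while desmin filaments tie the apparatus to the cell. Smooth muscle of arteries and pericytes use the same genes, so libraries of whole testis hold the sum over these and any other cells that make them. Levels are relative to all the RNA counted in a library. Fewer such cells, less RNA in each of them and more RNA from the rest of the testis cannot be told apart here.

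The estimated mRNA counts came to between 17165491 (Hb replicate 3) and 23758935 (Ha replicate 1) in a library. Levels are given as CPM, which are counts relative to the total of the library after TMM scaling over the 12 libraries, and for comparisons between genes as FPKM, which also divide by length. A gene was called when its adjusted p was below 0.05 and its log2 fold change exceeded 1 in either direction in edgeR's quasi-likelihood test, fitted over all mRNAs. Fold changes are the second group over the first and are given with their standard error. The 10 genes passed the filter on low counts in each comparison, with between 26 counts (ACTG2 in Hb) and 6931 counts (ACTA2 in Lb) in a library.

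Smooth-muscle actin and calponin changed with age in opposite directions in the breeds. In Hezuo boars, ACTA2, ACTG2, CNN1, TPM2 and CALD1 fell between 30 and 120 days, so that 5 of the 10 genes were called lower and 0 higher, where 23.2% of the 16548 mRNAs tested were called lower and 28.2% higher. In Landrace boars, ACTA2, ACTG2 and CNN1 rose and CALD1 fell, which makes 3 called higher and 1 lower, beside 27.5% and 20.1% of 16637 mRNAs. The median log2 fold change of the 10 genes was -1.10 in Hezuo and 0.22 in Landrace, against -0.02 and 0.01 over all mRNAs tested.

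Between the breeds, the same 3 genes stood out at 120 days. In Hb vs Lb, ACTA2, ACTG2 and CNN1 were called higher in Landrace and 0 of the 10 lower, where 2.65% of 16311 mRNAs were called higher and 1.20% lower. The 3 Lb values lay above the 3 Hb values for 6 of the 10 genes, and for 16.0% of the mRNAs tested. At 30 days (Ha vs La), 0 of the 10 were called by edgeR, where 3.60% of 15648 mRNAs were called higher in Landrace and 4.01% lower. There, ACTA2 (-0.62 ± 0.10), TPM1 (0.26 ± 0.08, adjusted p = 0.045) and DES (0.47 ± 0.14, adjusted p = 0.0486) had an adjusted p below 0.05 but not the fold, 4 of the 10 had an unadjusted p under 0.05, and DESeq2 and limma also called 0. The test of the interaction, which asks whether the change with age differed between the breeds, called ACTA2, ACTG2 and CNN1 with a higher change in Landrace, beside 3.51% of 17332 mRNAs in that direction and 1.62% in the other. With a library left out, the number of mRNAs called in Hb vs Lb lay between 97 and 1029, in place of 628. In the interaction it lay between 437 and 1242, in place of 890. With all libraries kept, DESeq2 called 1176 in Hb vs Lb and 1363 in the interaction. The fit of all 12 libraries called 1227 in Hb vs Lb, and limma with a pseudocount of 0.1 called 1365 in the interaction. The comparisons share libraries, so their values are set side by side and are not independent of each other.

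**Figure D1:**
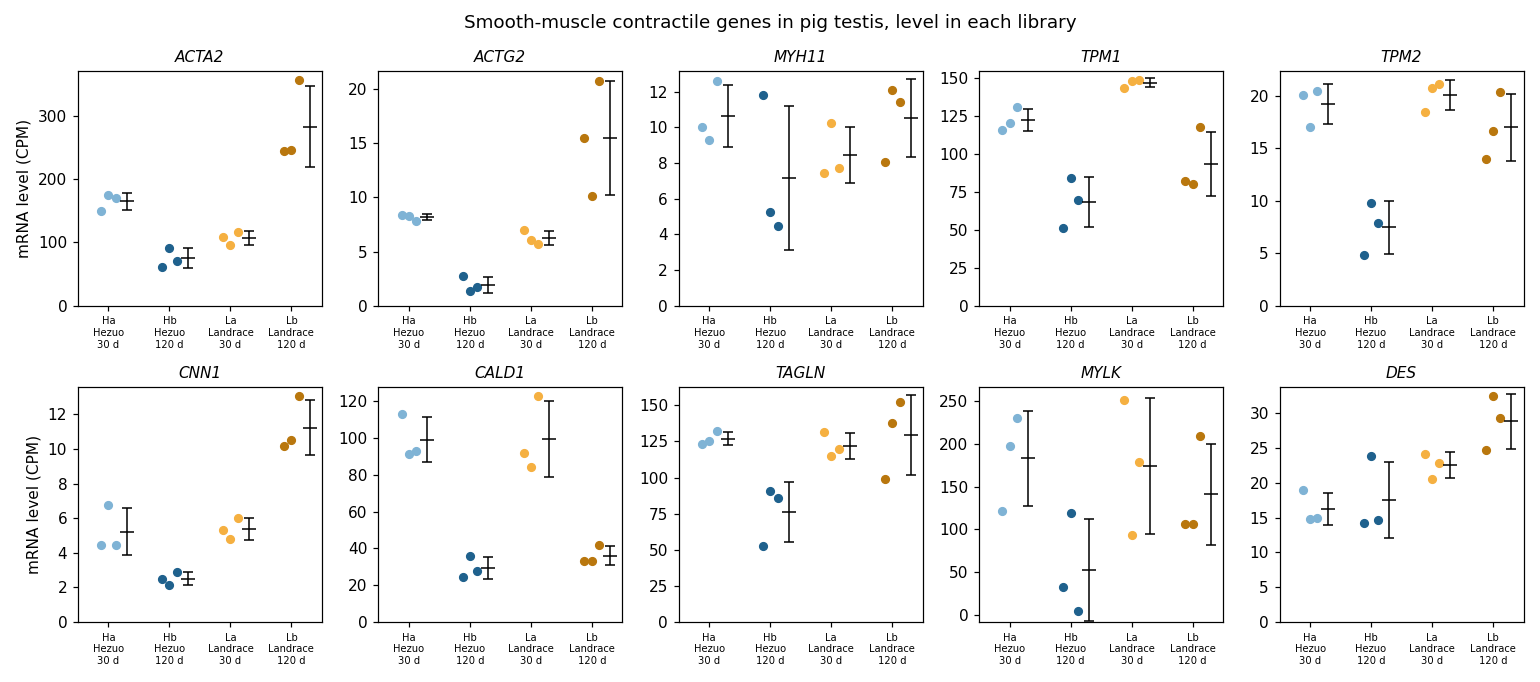
Level of each of the 10 contractile genes in CPM (vertical axes, from 0 or below it where the mean minus SD is negative) in each library (points) of the 4 groups (horizontal axes), with the group mean ± SD beside the points (n = 3). ACTA2, ACTG2 and CNN1 are lowest in Hb and highest in Lb, CALD1 is low in both groups of 120 days, and MYLK spreads from 4.75 to 119 CPM within Hb.

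ACTA2 encodes alpha smooth muscle actin, the main actin of the contractile filaments and a widely used marker of myoid cells (NCBI gene 733615, chromosome 14, 100868145 to 100886732 in Sscrofa11.1, the build of all positions given here). Its level was 150, 174 and 171 CPM in Ha, 61.5, 91.8 and 71.2 in Hb, 109, 95.5 and 117 in La, and 245, 246 and 356 in Lb. The 4 groups did not overlap, in the order Hb, La, Ha and Lb. ACTA2 fell by 1.14 ± 0.17 on the log2 scale with age in Hezuo (adjusted p = 0.000695) and rose by 1.42 ± 0.18 in Landrace (adjusted p = 0.000144). At 120 days it was higher in Landrace by 1.96 ± 0.24 (adjusted p = 0.00953, higher in 3 of 3 libraries). At 30 days it was lower in Landrace, with a log2 fold change of -0.62 ± 0.10 (adjusted p = 0.0063) that does not reach the fold threshold. The difference between the changes with age came to 2.54 ± 0.25 (adjusted p = 0.00114).

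ACTG2 encodes gamma smooth muscle actin, the actin of gut and other visceral muscle (NCBI gene 100520667, chromosome 3, 69097366 to 69121542). Its level was 8.37, 8.27 and 7.84 CPM in Ha, 2.78, 1.35 and 1.71 in Hb, 7.0, 6.08 and 5.68 in La, and 15.5, 10.2 and 20.7 in Lb. No pair of groups overlapped, and their order was that of ACTA2. It fell by 2.07 ± 0.33 in Hezuo (adjusted p = 0.0011) and rose by 1.32 ± 0.28 in Landrace (adjusted p = 0.00277), a rise that limma with either pseudocount did not call (down to 0.80). At 120 days the gap between the breeds was 3.04 ± 0.39 (adjusted p = 0.0116), an 8.24-fold higher level in Landrace and the largest fold change among the 10 genes. The call at 120 days was lost without Hb replicate 3, where the fold held and the adjusted p moved (2.97, adjusted p = 0.0506). The interaction was 3.37 ± 0.43 (adjusted p = 0.00273). ACTA2, ACTG2, ACTA1 and ACTC1 encode nearly the same protein, so their values may be uncertain where the authors' counting divided shared reads between them. The extent of such sharing was not tested.

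CNN1, calponin, is a marker of differentiated smooth muscle that binds actin and slows the myosin motor (NCBI gene 396911, chromosome 2, 70183370 to 70190756). It measured 4.45, 6.79 and 4.43 CPM in Ha, 2.49, 2.14 and 2.90 in Hb, 5.30, 4.77 and 6.04 in La, and 10.2, 10.5 and 13 in Lb. Hb lay below the other groups and Lb above them, while Ha and La overlapped. The change with age was -1.06 ± 0.31 in Hezuo (adjusted p = 0.0175) and 1.08 ± 0.21 in Landrace (adjusted p = 0.00172), both close to the fold threshold. At 120 days CNN1 was higher in Landrace by 2.21 ± 0.26 (adjusted p = 0.00953), and the interaction was 2.12 ± 0.34 (adjusted p = 0.0074). The call in Hezuo was lost without Ha replicate 2 (log2 fold change -0.83, adjusted p = 0.0816) and without Hb replicate 2 (-0.98, adjusted p = 0.0411), and in limma with a pseudocount of 1 (-0.97). That in Landrace was lost without La replicate 2 (0.99) and without Lb replicate 3 (0.95), and also with library totals, upper-quartile factors and limma with either pseudocount, with values down to 0.61, all under the fold threshold.

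CALD1, caldesmon, blocks the binding of myosin to actin until calcium rises, and a shorter form is made in non-muscle cells as well (NCBI gene 100524227, chromosome 18, 14267955 to 14486641). Its level was 113, 91.4 and 92.8 CPM in Ha and 24.8, 36.0 and 27.6 in Hb. In Landrace it was 91.9, 84.1 and 123 in La and 33.4, 33.0 and 42.0 in Lb. All 6 libraries of 120 days lay below all 6 of 30 days, and the breeds overlapped at each age. CALD1 fell by 1.75 ± 0.18 in Hezuo (adjusted p = 0.000116) and by 1.45 ± 0.18 in Landrace (adjusted p = 0.000142). EdgeR called no other of the 10 genes lower in both breeds, while limma with either pseudocount also called TPM1 in both. The interaction was 0.29 ± 0.26 (adjusted p = 0.538), and Hb vs Lb gave 0.34 ± 0.21 (adjusted p = 0.35).

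Tropomyosins wind around actin filaments, and TPM1 and TPM2 give rise to the muscle forms. TPM1 (NCBI gene 100037999, chromosome 1, 108986981 to 109016090) measured 116, 120 and 131 CPM in Ha, 51.1, 83.8 and 69.4 in Hb, 143, 148 and 149 in La, and 82.0, 80.3 and 117 in Lb. Within each breed the ages did not overlap, while Hb and Lb did. The log2 fold change of TPM1 was -0.85 ± 0.18 in Hezuo (adjusted p = 0.00471) and -0.64 ± 0.16 in Landrace (adjusted p = 0.00774), both under the fold threshold. Without Hb replicate 2 the value in Hezuo was -1.04 (adjusted p = 0.00265), which passes it. Limma called TPM1 lower in both breeds with either pseudocount (down to -1.57 and -1.04), and library totals and upper-quartile factors did so in Hezuo.

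TPM2 (NCBI gene 396693, chromosome 1, 236402249 to 236410390) measured 20.1, 17.0 and 20.5 CPM in Ha, 4.81, 9.75 and 7.85 in Hb, 18.5, 20.7 and 21.1 in La, and 14, 16.7 and 20.3 in Lb. Hb lay below the other groups, which overlapped with each other. It fell by 1.36 ± 0.27 in Hezuo (adjusted p = 0.00312), and La vs Lb gave -0.23 ± 0.18 (adjusted p = 0.286). Hb vs Lb gave 1.22 ± 0.31 (adjusted p = 0.0631) and the interaction 1.11 ± 0.33 (adjusted p = 0.0626), both short of the threshold. Without Hb replicate 2 these were 1.49 (adjusted p = 0.0363) and 1.36 (adjusted p = 0.0205), past it. With all libraries kept, DESeq2 and limma with either pseudocount called TPM2 in both, and the fit of all 12 libraries called it in Hb vs Lb.

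MYH11 encodes the heavy chain of smooth muscle myosin, the motor itself (NCBI gene 100627924, chromosome 3, 7002667 to 7143093). Its level was 10.1, 9.32 and 12.6 CPM in Ha, 11.8, 5.25 and 4.48 in Hb, 7.42, 10.2 and 7.71 in La, and 8.05, 12.1 and 11.4 in Lb. Every pair of groups compared overlapped, and Hb replicate 1 lay apart from the other Hb libraries. MYH11 was called in no comparison, with log2 fold changes of -0.57 ± 0.39 in Hezuo (adjusted p = 0.227) and 0.33 ± 0.23 in Landrace (adjusted p = 0.226). Without Hb replicate 1 the value in Hezuo was -1.12 (adjusted p = 0.0076) and the interaction 1.47 (adjusted p = 0.0295), past the thresholds. Limma with a pseudocount of 0.1 also called MYH11 in Hezuo with all libraries kept (-1.05).

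MYLK encodes the myosin light chain kinase that starts contraction (NCBI gene 396848, chromosome 13, 136509878 to 136809674). It measured 122, 197 and 230 CPM in Ha, 32.3, 119 and 4.75 in Hb, 251, 92.9 and 179 in La, and 107, 107 and 210 in Lb. Within Ha, Hb and La the libraries differed more for MYLK than for the other 9 genes, with a 25.2-fold range in Hb and a 2.70-fold range in La. Hb lay below Ha, and all other pairs of groups compared overlapped. The log2 fold change in Hezuo was -1.82 ± 0.91 (adjusted p = 0.111), and without Hb replicate 2 it was -3.35 (adjusted p = 0.011). Limma with either pseudocount called this fall with all libraries kept (down to -3.14). In Landrace it was -0.29 ± 0.38 (adjusted p = 0.524). Hb vs Lb gave 1.45 ± 0.90 (adjusted p = 0.342), which was 3.00 without Hb replicate 2 (adjusted p = 0.0544) and 0.92 without Hb replicate 3.

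TAGLN, transgelin, is an actin-bundling protein of early and mature smooth muscle (NCBI gene 397021, chromosome 9, 44561756 to 44567385). Its level was 124, 125 and 132 CPM in Ha, 52.6, 90.7 and 85.5 in Hb, 132, 115 and 119 in La, and 98.6, 138 and 152 in Lb. Hb lay below each of the other groups, and Ha, La and Lb overlapped. The change in Hezuo was -0.74 ± 0.20 (adjusted p = 0.014), under the fold threshold, and was called with library totals, upper-quartile factors and limma with either pseudocount (down to -1.27). La vs Lb gave 0.11 ± 0.17 (adjusted p = 0.589), a sign that turns to -0.06 with scaling by library totals and to -0.15 with upper-quartile factors.

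DES encodes desmin, the intermediate filament of muscle cells (NCBI gene 396725, chromosome 15, 121428539 to 121435426). It measured 19, 14.9 and 15.0 CPM in Ha, 14.3, 23.9 and 14.6 in Hb, 24.2, 20.5 and 22.9 in La, and 24.7, 32.5 and 29.4 in Lb. Lb lay above each of the other groups, La lay above Ha, and Hb overlapped with Ha and La. Hb vs Lb gave a log2 fold change of 0.75 ± 0.26 (adjusted p = 0.125), which passed both thresholds without Hb replicate 2 (1.06, adjusted p = 0.0297). Ha vs Hb gave 0.11 ± 0.24 (adjusted p = 0.696), and its sign turned to -0.17 with library totals and to -0.19 with upper-quartile factors. Counted over the 10 genes, the 3 Hb values lay under the 3 Ha values for 8, all but MYH11 and DES, and for 37.6% of the mRNAs tested.

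**Figure D2:**
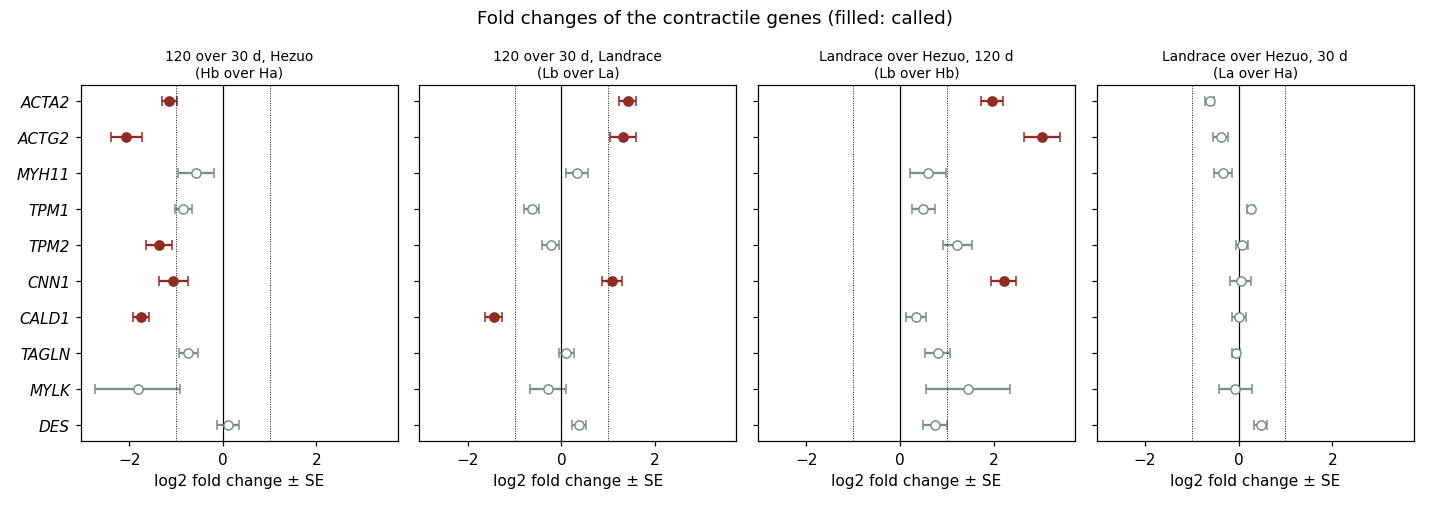
Log2 fold change ± SE (horizontal axes) of each contractile gene (vertical axis) in the 4 comparisons, with called genes filled and dotted lines at the fold threshold of 1 in either direction. ACTA2, ACTG2 and CNN1 lie left of 0 with age in Hezuo and right of 0 with age in Landrace, while CALD1 lies left in both.

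Per length, actin and transgelin dominated the set. In Ha the mean FPKM was 112 ± 8.71 for ACTA2, 89.3 ± 3.12 for TAGLN and 52.7 ± 2.61 for TPM1, followed by MYLK at 20 ± 4.76 and CALD1 at 18.3 ± 2.39, whose libraries overlapped (SD, n = 3). MYH11 had the lowest mean in all 4 groups, between 0.633 ± 0.31 FPKM in Hb, where it overlapped with ACTG2 and CNN1, and 1.35 ± 0.22 FPKM in Ha. TAGLN led in La at 83.6 ± 5.51 FPKM, ahead of ACTA2 at 71.0 ± 7.62, with no overlap. In Hb, TAGLN at 38.6 ± 12.6 FPKM and ACTA2 at 36.8 ± 10.4 overlapped. In Lb, ACTA2 at 155 ± 45.2 FPKM stood above TAGLN at 72.9 ± 19.1. Summed over the 10 genes, the level was 323 ± 14.6 FPKM in Ha, 114 ± 35.6 in Hb, 284 ± 22.0 in La and 311 ± 85.9 in Lb, so Hb was low, Ha lay above La, and Lb overlapped with both. The summed CPM was 756 ± 65.9 in Ha, 338 ± 111 in Hb, 713 ± 102 in La and 765 ± 181 in Lb, where Ha, La and Lb overlapped.

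Ratios between the genes within a library do not depend on how libraries are scaled. The pairs below were chosen after the values were seen, and their differences were not tested. The ratio of ACTA2 to TPM1 in FPKM was 2.03, 2.27 and 2.09 in Ha, 2.098, 2.09 and 1.88 in Hb, 1.21, 1.04 and 1.27 in La, and 5.02, 5.27 and 5.13 in Lb. Ha and Hb overlapped, La lay below them and Lb above, and the SD within a group was between 0.119 and 0.125. In CPM, taken after the values were seen, the ratio was 1.35 ± 0.0843 in Ha, 1.11 ± 0.0900 in Hb, 0.730 ± 0.0755 in La and 3.03 ± 0.0399 in Lb, and there Ha lay above Hb. FPKM and counts thus do not keep a fixed proportion over the libraries. The ratio of ACTA2 to CALD1 was 4.87, 7.17 and 6.70 in Ha, 8.84, 9.20 and 9.48 in Hb, 4.27, 4.14 and 3.40 in La, and 27.0, 27.1 and 30.2 in Lb. It was higher at 120 days in both breeds, and the groups did not overlap. The proportion of ACTA2 to TPM1 thus varied little between replicates, and both ratios were highest in Lb. Other pairs varied more, such as ACTA2 to MYH11 in FPKM, at 28.0, 94.5 and 85.8 in Hb.

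**Figure D3:**
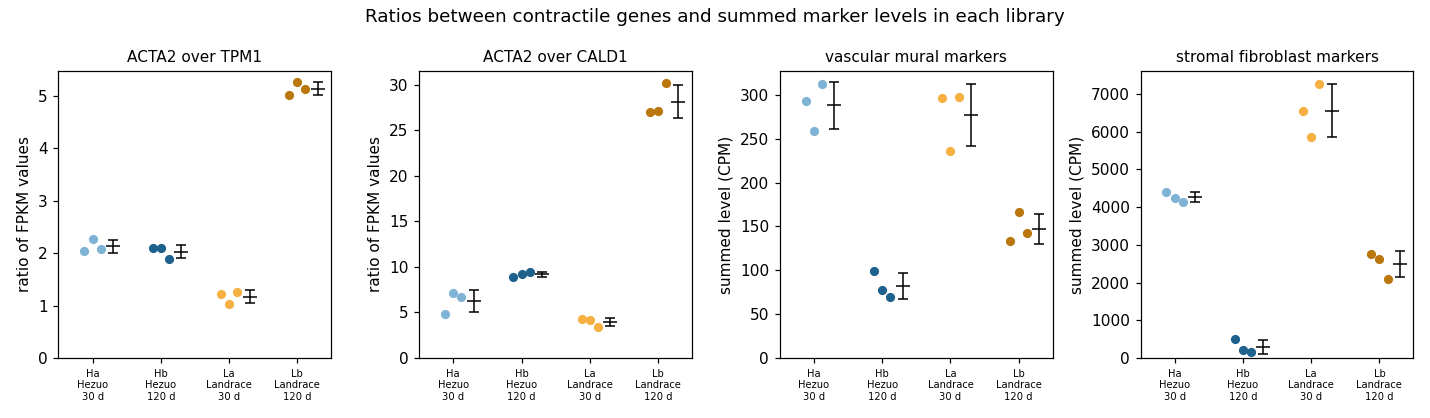
Ratios of FPKM values within each library (left pair of panels) and summed CPM of the vascular mural and stromal fibroblast markers (right pair), with points for libraries and the group mean ± SD beside them (n = 3). ACTA2 over TPM1 sits near 5.14 in Lb and near 1.17 in La, while the summed markers of both lists are lower at 120 than at 30 days.

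Each contractile gene has relatives that are used in other cells. Among 6 actins, the share of ACTA2 in the summed FPKM was 5.43 ± 0.52% in Ha, 2.47 ± 0.46% in Hb, 3.88 ± 0.43% in La and 7.96 ± 1.5% in Lb, and most of the rest was ACTB and ACTG1, the cytoplasmic actins of all cells. CNN1 made up 3.79 ± 1.3% of the 3 calponins in Ha and 8.87 ± 2.40% in Hb, against 3.44 ± 0.48% in La and 20.1 ± 4.0% in Lb. TAGLN made up 37.3 ± 1.62% of the transgelins in Ha, 72.6 ± 9.18% in Hb, 36.0 ± 0.27% in La and 59.2 ± 11.6% in Lb. MYH11 stayed a small part of 4 class II myosins, between 2.12 ± 0.39% in La and 5.95 ± 1.07% in Lb, where MYH9, the non-muscle heavy chain, held 61.9 ± 4.85% in Hb and more in the other groups.

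Among 17 such paralogs, 16 were tested with age in each breed. In Hezuo 2 were called higher (ACTA1 and MYLK4) and 10 lower, and in Landrace 2 higher (ACTA1 and ACTG1) and 8 lower, with median log2 fold changes of -1.74 and -0.98. The shares over all mRNAs tested were 28.2% higher and 23.2% lower in Hezuo, and 27.5% and 20.1% in Landrace. The 3 lower paralogs with the smallest adjusted p were MYH9 (-2.06 ± 0.15), TAGLN2 (-3.03 ± 0.25) and CNN3 (-2.61 ± 0.23) in Hezuo, and TPM4 (-1.93 ± 0.11), CNN3 (-2.10 ± 0.15) and MYH9 (-1.47 ± 0.11) in Landrace. TAGLN2 and TPM4 were called lower in the other breed as well (-1.25 ± 0.19 in Landrace and -2.99 ± 0.32 in Hezuo). ACTG1 rose by 1.21 ± 0.10 in Landrace and by 0.86 ± 0.14 in Hezuo, where it was not called, and MYLK4 was called in Hezuo at 1.14 ± 0.43 (adjusted p = 0.0471) although its groups overlapped. ACTA1, the actin of skeletal muscle, had no more than 3 counts in each library of 30 days. It reached 186, 71 and 196 counts in Hb and 726, 832 and 624 in Lb, at least 76.7-fold and 264-fold higher than at 30 days. ACTC1, cardiac actin, was at or under 18 counts in all libraries and was not tested. In Hb vs Lb, TAGLN2 (1.82 ± 0.30), ACTA1 (2.02 ± 0.43) and TPM4 (1.39 ± 0.31) were called higher in Landrace and 0 lower. Of all mRNAs tested there, 2.65% were called higher and 1.20% lower. In Ha vs La edgeR, DESeq2 and limma called 0 of 15, with 5 at an unadjusted p under 0.05. EdgeR called the interaction for TAGLN2 alone among the paralogs (1.77 ± 0.33, adjusted p = 0.0135), and limma with a pseudocount of 1 called it for 3. Over all mRNAs edgeR called it with a higher change in Landrace for 3.51%.

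Of 18 partners of the contractile apparatus, such as light chains, filamin, vinculin and proteins of the dense bodies, 12 were called lower and 0 higher with age in Hezuo, and 5 lower and 0 higher in Landrace. Their median log2 fold changes were -1.55 and -0.50. Of all mRNAs tested, 23.2% were called lower and 28.2% higher in Hezuo, and 20.1% and 27.5% in Landrace. PDLIM3, a protein of actin anchoring sites, fell from 128 ± 26.1 to 4.80 ± 1.60 CPM in Hezuo (log2 fold change -4.73 ± 0.29) and from 66.7 ± 10.6 to 8.80 ± 1.11 in Landrace (-2.91 ± 0.17). Vinculin (VCL) and the small heat shock protein HSPB6 fell in Hezuo by 1.51 ± 0.12 and 1.82 ± 0.18, and in Landrace by 0.50 ± 0.10 and 0.57 ± 0.14, under the fold threshold. FHL1 fell by 1.62 ± 0.29 in Hezuo and 3.32 ± 0.14 in Landrace, and PGM5 by 2.06 ± 0.27 and 1.50 ± 0.12. At 120 days 4 partners were called higher in Landrace and 1 lower, with PDLIM7 (2.35 ± 0.37), PGM5 (1.48 ± 0.29) and ACTN1 (1.36 ± 0.28) higher and FHL1 lower (-1.83 ± 0.29). Of all mRNAs tested there, 2.65% were called higher and 1.20% lower. In Ha vs La 0 of 18 were called by edgeR, DESeq2 or limma, and 9 had an unadjusted p under 0.05. The interaction was called for 4 partners with a higher change in Landrace, led by HSPB6 (1.23 ± 0.21), PDLIM3 (1.81 ± 0.33) and ACTN1 (1.48 ± 0.29), and for FHL1 with a lower change (-1.72 ± 0.34). Over all mRNAs the shares were 3.51% with a higher and 1.62% with a lower change.

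Receptors and calcium handling genes of contraction changed in both directions with age. Of 19 tested, 2 were called higher and 9 lower in Hezuo, and 3 higher and 9 lower in Landrace, with medians of -1.01 and -0.91. Over all mRNAs tested, 28.2% were called higher and 23.2% lower in Hezuo, and 27.5% and 20.1% in Landrace. Limma with a pseudocount of 1 called 7 of the 19 in Hezuo and 6 in Landrace. KCNMB1, the smooth muscle beta subunit of the large calcium-activated potassium channel, rose from 1.32 ± 0.44 to 3.11 ± 0.80 CPM in Hezuo (log2 fold change 1.24 ± 0.39) and from 0.893 ± 0.060 to 8.66 ± 1.29 in Landrace (3.29 ± 0.26). Its pore subunit KCNMA1 fell instead, by 1.44 ± 0.17 and 2.12 ± 0.24. KCNMB1 was also called in Hb vs Lb (1.51 ± 0.30, adjusted p = 0.0344) and in the interaction (2.03 ± 0.44, adjusted p = 0.0216). EdgeR called no other gene of this list in either, while DESeq2 called 2 in each. Of all mRNAs tested, edgeR called 2.65% higher in Hb vs Lb and 3.51% in the interaction.

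PTGFR, the receptor of prostaglandin F2 alpha, rose by 2.22 ± 0.31 in Hezuo and 1.62 ± 0.24 in Landrace. ADRA1D, an adrenergic receptor, rose by 1.33 ± 0.44 in Landrace, and Ha vs Hb gave 0.90 ± 0.44 (adjusted p = 0.105). Its counts were low, at 5, 5 and 8 in La and 11, 16 and 14 in Lb. The subunits of soluble guanylate cyclase, which relaxes smooth muscle on nitric oxide, fell in Hezuo by 2.19 ± 0.31 (GUCY1A1) and 2.11 ± 0.21 (GUCY1B1), and in Landrace by 1.37 ± 0.17 and 1.20 ± 0.19. EDNRB, an endothelin receptor, fell by 2.89 ± 0.41 in Hezuo and 2.19 ± 0.26 in Landrace. At 30 days edgeR and limma called 0 of 18 and DESeq2 called 1, with 4 at an unadjusted p under 0.05.

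Transcription of smooth muscle genes is driven by SRF with its coactivators myocardin (MYOCD) and the actin-sensing MRTFA and MRTFB, and is held down by KLF4. MYOCD measured 5.22 ± 0.58 CPM in Ha, 6.85 ± 0.62 in Hb, 2.72 ± 0.38 in La and 8.96 ± 0.29 in Lb. It rose by 1.73 ± 0.22 in Landrace (adjusted p = 0.000152), and Ha vs Hb gave 0.39 (adjusted p = 0.157). The interaction of MYOCD was 1.32 ± 0.28 (adjusted p = 0.0193), in the direction of that of ACTA2, ACTG2 and CNN1. In the interaction limma called 0 of the regulators with a pseudocount of 1 on FPKM and 2 with 0.1.

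Of the 11 regulators, 2 were called higher and 6 lower in Hezuo, and 3 higher and 5 lower in Landrace, with medians of -1.06 and -0.93. Among all mRNAs tested, 28.2% were called higher and 23.2% lower in Hezuo, and 27.5% and 20.1% in Landrace. KLF4 rose by 3.21 ± 0.23 in Hezuo and 2.77 ± 0.17 in Landrace, and MRTFA by 1.80 ± 0.30 and 1.12 ± 0.12. In both breeds, given as Hezuo and then Landrace, MEF2C fell by 1.06 ± 0.12 and 1.52 ± 0.18, ELK1 by 1.41 ± 0.17 and 1.16 ± 0.14, GATA6 by 2.04 ± 0.27 and 2.66 ± 0.13, and TCF21 by 2.28 ± 0.32 and 1.64 ± 0.19, all called. MRTFB fell by 1.03 ± 0.12 in Landrace, and Ha vs Hb gave -0.37 ± 0.12 (adjusted p = 0.031). SRF gave -0.88 and -0.89 (adjusted p = 0.00914 and 0.00092), under the fold threshold in both. KLF4 is also made by spermatids, so its level in whole testis is not that of smooth muscle alone. Between the breeds edgeR, DESeq2 and limma called 0 of the 11 at either age, with 4 at 30 days and 1 at 120 days at an unadjusted p under 0.05.

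Markers of other cells moved with age and breed as well. The 7 markers of vascular mural cells, which share the contractile genes, summed to 293, 258 and 312 CPM in Ha, 99.1, 78.0 and 69.4 in Hb, 296, 236 and 298 in La, and 133, 166 and 142 in Lb. The sums of 120 days lay below those of 30 days in both breeds, and Lb lay above Hb. NOTCH3 was the most abundant, and HIGD1B was at or under 3 counts in the Hb libraries. Of the 6 tested with age, 6 were called lower in Hezuo and 3 in Landrace, and 2 of 6 were called higher in Lb than in Hb. The shares over all mRNAs tested were 23.2% and 20.1% lower with age, and 2.65% higher in Lb. The interaction was called for 2 of 7, with a higher change in Landrace, beside 3.51% of all mRNAs tested. The median over the 7 was 1.36, beside a median of 0.9995 for the 10 contractile genes and 0.02 over all mRNAs. In Landrace, then, ACTA2, ACTG2 and CNN1 rose while the summed level of these markers fell from 277 ± 35.3 to 147 ± 17.2 CPM. DESeq2 called 2 of the mural markers in La vs Lb, 3 in Hb vs Lb and 3 in the interaction, and limma with a pseudocount of 1 called 4, 0 and 1. The part of vessel cells in the levels of the contractile genes was not tested.

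The 6 stromal fibroblast markers, led by COL3A1, summed to 4398, 4256 and 4139 CPM in Ha, 514, 212 and 155 in Hb, 6546, 5857 and 7259 in La, and 2750, 2628 and 2106 in Lb. No groups overlapped, with Hb lowest. In Hezuo 6 of 6 were called lower with age, in Landrace 4 of 6, and 3 of 6 were called higher in Lb than in Hb. Of all mRNAs tested, 23.2% and 20.1% were called lower and 2.65% higher in the same comparisons. The 5 endothelial markers, led by VWF, summed to 669, 681 and 616 CPM in Ha, 173, 305 and 186 in Hb, 795, 627 and 756 in La, and 316, 497 and 278 in Lb. Of these, 5 were called lower in Hezuo and 3 in Landrace, and 1 was called higher in Lb than in Hb. The shares over all mRNAs are those given for the stromal markers. The interaction was called for 3 of 6 stromal markers (median 1.74) and 1 of 5 endothelial markers (median 0.93), with a higher change in Landrace as for ACTA2. Of all mRNAs tested, 3.51% were called in that direction. Limma with a pseudocount of 1 called 0 of the endothelial markers in Hb vs Lb. The mean sums of mural, stromal and endothelial markers were lowest in Hb, although the endothelial sums of Hb and Lb overlapped. The mean levels of 9 of the 10 contractile genes, all but DES, were lowest there too. So were the mean sums of the Sertoli, Leydig, striated muscle and duct markers given below. The part of this shift in the levels of the contractile genes was not tested.

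Markers of the tubule and interstitium moved too. Of all mRNAs tested, 28.2% were called higher and 23.2% lower with age in Hezuo, and 27.5% and 20.1% in Landrace. The 8 markers of spermatocytes and spermatids, led by PRM1, summed to 6.02, 8.64 and 6.33 CPM in Ha, 4952, 4845 and 6466 in Hb, 8.65, 7.03 and 4.65 in La, and 3128, 2632 and 2518 in Lb. They were called higher with age for 8 of 8 in both breeds. TNP1 was at or under 3 counts in each library of 30 days. In Hb vs Lb 1 of 8 was called lower in Lb, beside 1.20% of all mRNAs. The interaction was called for 2 of 8 with a lower change in Landrace (median -1.23), beside 1.62% of all mRNAs. The 7 Sertoli markers, led by INHA, summed to 1093, 1042 and 1453 CPM in Ha, 365, 530 and 435 in Hb, 2448, 3002 and 2701 in La, and 529, 665 and 585 in Lb, and 3 of 7 were called lower with age in each breed. At 30 days 3 of 7 were called higher in Landrace, by edgeR, DESeq2 and limma alike. EdgeR called 3.60% of all mRNAs higher there. The 6 Leydig markers, led by CYP17A1, summed to 9958, 9429 and 8556 CPM in Ha, 3973, 194 and 117 in Hb, 13307, 8965 and 10875 in La, and 4759, 7245 and 2900 in Lb. Among them 4 of 6 were called lower with age in each breed. Hb replicate 1, which stood apart in MYH11, thus also stood apart in Leydig markers.

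Markers of other muscle and of the duct were detected at low levels. The 9 markers of striated muscle, led by MYBPC1, summed to 10.3, 16.7 and 23.1 CPM in Ha, 1.45, 3.30 and 3.69 in Hb, 17.7, 18.0 and 19.6 in La, and 6.38, 7.81 and 5.03 in Lb. TNNT3 was at or under 3 counts in all 12 libraries. The sums of 120 days lay below those of 30 days in both breeds. In edgeR 3 of 6 tested were called lower with age in Hezuo, 2 of 5 in Landrace and 1 of 6 in La than in Ha. Over all mRNAs tested, the shares called lower were 23.2%, 20.1% and 4.01% in these comparisons. Limma with a pseudocount of 1 called 1, 1 and 0 of these markers in the same comparisons. Of the 4 markers of duct epithelium, KRT19 and WFDC2 had a row, and their sum was 7.48, 7.11 and 12.3 CPM in Ha, 5.80, 6.45 and 2.70 in Hb, 7.81, 8.74 and 7.83 in La, and 2.73, 6.59 and 7.19 in Lb, mostly KRT19. Of these 2, 1 was called lower with age in each breed and 1 higher in La than in Ha. For all mRNAs the share called higher in La was 3.60%. None of the marker lists had a gene at 0 in all 12 libraries.

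How far the 10 genes moved together was described by Pearson's r of log2 CPM over the 12 libraries, which share their groups. Over the 45 pairs r had a median of 0.58 and was above 0 for 44. TAGLN with TPM2 (0.93), ACTG2 with CNN1 (0.92), TPM1 with TPM2 (0.90) and ACTA2 with CNN1 (0.90) were high, and ACTA2 with CALD1 was 0.09. With the group means removed, the median was 0.20 and the range -0.52 to 0.90. ACTA2 with TPM1 (0.90), TPM1 with TPM2 (0.89) and TAGLN with TPM2 (0.87) varied together among replicates, whereas the median r of MYH11 with the other 9 was -0.34 and that of ACTG2 was -0.17. ACTG2 and CNN1 followed ACTA2 between groups, while among replicates r with ACTA2 was -0.06 for ACTG2 and 0.31 for CNN1.

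The mean of the 10 standardised genes over the 12 libraries was compared with 17322 other mRNAs. Those with a symbol most like it were SMIM41, MFAP4, TUBB6, PADI2, SCD5, XXYLT1, MCAM, PLAC8, SPATA13 and GPD1, with r between 0.93 and 0.96. MFAP4, a protein of elastic fibres, measured 48.8 CPM in Ha, 13.9 in Hb, 58.2 in La and 77.5 in Lb on average, and MCAM, which is on the mural list, 33.0, 10.5, 36.4 and 29.9. All 10 had their lowest mean in Hb. With the group means removed they were IKBIP, LEPR, SEMA3C, DAPK1, C6H1orf109, REV3L, SCN1A, LEO1, RINL and AP1S2, with r between 0.92 and 0.97. No gene was on both lists. These are the highest of many values over few libraries, and no p is given.

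At the loci themselves, 8 of the 10706 lncRNAs in the deposited table lie within 10 kb of a member or overlap it, near MYH11, MYLK, TPM1 and CALD1. The span of the gene of a known lncRNA was taken for its transcripts. A transcript of LOC110260973 (chromosome 1, 108955548 to 108979255), whose gene ends 7726 bases from TPM1, had 21, 23 and 20 counts in Ha and 3, 9 and 7 in Hb. It was called lower with age in Hezuo (-1.89, adjusted p = 0.0171) and in Landrace (-3.60, adjusted p = 0.00335), where 17.6% of 2909 and 19.3% of 2988 lncRNAs tested were called lower. TPM1 itself was lower at 120 days in both breeds, though under the fold threshold.

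LOC102157484 (chromosome 13, 136800693 to 136834051) overlaps the end of MYLK with the higher coordinates, and its 4 transcripts ranged from 0 to 149 counts in a library with no call. The lncRNA within MYH11, LOC110259859 (chromosome 3, 7128287 to 7129459), reached 1 count, and LOC102160748 within CALD1 (chromosome 18, 14295649 to 14298567) was at 0 in all 12 libraries. An intergenic transcript assembled by the authors (chromosome 18, 14495151 to 14517961), lies 8510 bases from CALD1. It had 0 counts in each library of Ha and La and up to 47 in the libraries of 120 days, and passed the filter in no comparison. No other protein-coding gene of the annotation overlaps any of the 10 genes, and the nearest, PCSK7, lies 188 bases from TAGLN.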

How the data were processed

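The authors depleted ribosomal RNA, made strand-specific libraries, filtered reads with fastp 0.18.0, removed ribosomal reads with Bowtie2 2.2.8, mapped to Sus scrofa 11.1 with HISAT2 2.1.0 and assembled transcripts with StringTie 1.3.4. The authors deposited, for each mRNA gene and lncRNA transcript, an estimated count that is not normalized. Beside it the authors gave FPKM, which divide by length and depth.

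Estimated counts were rounded. Each comparison used its 6 libraries, and the interaction all 12, with edgeR 4.0.16 in R 4.3.3: filterByExpr (minimum count 10), TMM and the quasi-likelihood test, with Benjamini-Hochberg adjustment over the whole table. A standard error is the absolute log2 fold change divided by the square root of F. A group whose libraries all had 3 counts or fewer was at the floor, and folds against it are lower bounds for counting error only. Group numbers were taken from the labels. The scripts were tested on simulated data. With 3 libraries a group, p-values rest on the variance model over all genes. Alternatives were DESeq2 1.42.0, limma 3.58.1 on FPKM, other scalings and filters, all libraries in 1 fit, the replicate number as a block, and each library left out.

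The 10 genes and the other lists were chosen with earlier results of these data known. Named are the 10 genes, up to 3 genes of each pathway list with the smallest adjusted p in each comparison and direction, each marker list by its sum and most abundant gene, the 10 genes most like the members by r (log2 CPM, prior count 2) in each way, and each lncRNA within 10 kb. A pathway list and a regulator are not reported here. SRF, MYOCD in Hezuo and the ratios, in FPKM and CPM, were named after their values were seen. Gene positions are from RefSeq on the same build, which matched all 10. Tables and figures used Python 3.11.15.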

Additional observations from a re-analysis of the deposited data

Results flagged for a closer look

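The change with age differed between the breeds, by the test of the interaction over all 12 libraries, for 3 of the 10 contractile genes. The change in Landrace minus that in Hezuo, on the log2 scale, was 2.54 for ACTA2, 3.37 for ACTG2 and 2.12 for CNN1. These genes fell with age in Hezuo and rose in Landrace, and the interaction was called for the 3 of them in all alternatives and without each library in turn. The fall and the rise of CNN1 and the rise of ACTG2 were not called in all alternatives.

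The same test called the following genes among the partners, paralogs, receptors and regulators. Among the partners of the contractile apparatus the difference was 1.81 for PDLIM3, 1.67 for PDLIM7, 1.48 for ACTN1, 1.23 for HSPB6 and -1.72 for FHL1. It was 1.77 for TAGLN2, 2.03 for KCNMB1 and 1.32 for MYOCD. Among the markers of other cells it was called for 2 of 7 of vascular mural cells, 3 of 6 of stromal fibroblasts and 1 of 5 of endothelium, in the direction of ACTA2, and for 2 of 8 of spermatocytes and spermatids in the other direction. Of all mRNAs tested, 3.51% were called in the direction of ACTA2 and 1.62% in the other. Groups of 3 libraries were not tested for single libraries that stand apart.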

How the results depend on the processing

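With 3 libraries a group, 1 library can decide a call. The number of contractile genes called, 5 in Ha vs Hb, was 9 with limma on log2(FPKM + 0.1), all lower. That setting also called 5735 of the 16548 mRNAs lower, in place of 3844. With a library left out, the number of contractile genes called in Ha vs Hb was between 4 and 6. In La vs Lb (4 called) the number was between 3 and 4, and in Hb vs Lb (3) between 2 and 5. In the interaction (3) it was between 3 and 4, and in Ha vs La 0 throughout. The cause was not tested.

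Scaling moved the median log2 fold change over all mRNAs in Ha vs Hb from -0.02 to -0.32 with library totals and -0.34 with upper-quartile factors, and in La vs Lb from 0.01 to -0.16 and -0.25. The share of called mRNAs that were higher moved from 54.8% to 44.1% and 43.7% in Ha vs Hb, from 57.7% to 47.1% with upper-quartile factors in La vs Lb, and from 68.4% to 81.6% with library totals in the interaction. Relative to that median the contractile genes moved by at most 0.06. Both scalings also called TAGLN and TPM1 in Ha vs Hb and lost CNN1 in La vs Lb. Limma on FPKM lost ACTG2 and CNN1 in La vs Lb, and with the pseudocount 1 also CNN1 in Ha vs Hb, and gained TPM1 in both and MYLK and TAGLN in Ha vs Hb, with MYH11 at the pseudocount 0.1.

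Signs turned only for values that were not called. DES in Ha vs Hb (0.11) was -0.17 with library totals, -0.19 with upper-quartile factors, -0.40 and -0.47 with limma at the pseudocounts 1 and 0.1, and between -0.198 and 0.251 without single libraries. TAGLN in La vs Lb (0.11) was -0.0566, -0.154, -0.226 and -0.230 in the same order, and between -0.0373 and 0.277 without single libraries, where MYLK (-0.29) was between -0.701 and 0.0629. In Ha vs La the ranges without single libraries were -0.0700 to 0.276 for CNN1, -0.413 to 0.243 for MYLK, -0.0117 to 0.142 for TPM2 and -0.162 to 0.130 for CALD1. CNN1 was -0.000678 with library totals. CALD1 was -0.0346 with library totals, -0.000235 with upper-quartile factors, -0.0103 and -0.0115 with limma, and -0.00821 with the replicate block.

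With the replicate number as a block, the counts of called genes were 5 with age in Hezuo, 4 in Landrace, 0 and 3 between the breeds at 30 and 120 days and 3 in the interaction, as without it, and over all mRNAs 154 were called in place of 628 in Hb vs Lb. Same-numbered libraries of the groups compared hardly deviated together (r between -0.02 and 0.05 over 12 pairs), so the numbers were not taken to pair them. In Ha vs Hb alone, each of the 3 libraries was closest to that of its own number, at r of 0.05, 0.02 and 0.05.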
